A study of Drosophila melanogaster with 24 samples.

Results

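A gene can give several transcripts, from different start sites, different splicing or different ends. A change in which of them is made need not change how much RNA the gene makes in all. The measure described here is therefore the share, the percent of a gene's counts that fall on one of its transcripts, compared between injured and uninjured flies. The members were the 22709 transcripts with a count that belong to the 7108 genes with at least 2 counted transcripts, out of 34880 transcripts of 17768 genes in the table. After a filter on low counts, 18967 transcripts of 6177 genes were tested.

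RNA came from whole male Drosophila melanogaster aged 1 to 7 days in a yw background, of 3 genotypes that carried 0, 1 or 2 copies of a Rel deletion: +/+ (wild type), +/Reldel (heterozygous) and Reldel/Reldel (homozygous). Rel encodes Relish, the NF-kappaB factor of the Imd immune pathway. Each genotype gave 4 libraries of uninjured flies and 4 of flies put through the laboratory's TBI (traumatic brain injury) protocol and collected 4 h later, 6 groups in all. The 12 injured libraries were compared with the 12 uninjured ones with genotype as a covariate. The comparison tests an injury effect pooled over the 3 genotypes, so a large shift in only some of them can also pass. Nothing in the labels ties libraries of a group to separate cultures or days, so the p-values speak of the spread among libraries, which may be technical.

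Library totals ran from 6543606 to 14660465 transcript counts and overlapped between all groups. Reads shared by transcripts of one gene were split by a statistical model before deposit, so a transcript with no base or splice junction of its own rests on that model. Whole flies were sequenced, and fewer cells of a type and less RNA per cell cannot be told apart. Homozygous injured library 1 stood apart, with 3943 CPM (counts scaled to a common library size) summed over 12 neuron markers against at most 2768 CPM in the other libraries. Wild-type injured library 4 held 278 CPM of 15 female and ovary markers, against at most 16.4 CPM elsewhere.

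Rel itself checks the homozygous label. Its gene count, not scaled to library size, was 456 to 1989 in wild-type and 273 to 906 in heterozygous libraries. In the 8 homozygous libraries 1 count in all was found. The wild-type and heterozygous ranges overlap, so the Rel count does not check those labels against each other. Its 3 tested transcripts start at different places on the same arm, chromosome 3R. Rel-RD held 67.6% ± 10.1 (SD, n = 8) of the gene's counts in uninjured and 62.2% ± 9.23 (SD, n = 8) in injured libraries of the genotypes that express it. Rel-RC held 15.8% ± 11.3 uninjured and 28.2% ± 7.46 injured (SD, n = 8 each). None of the 3 passed the test of the share (edgeR adjusted p = 0.811, 0.869 and 1.00 for Rel-RC, Rel-RB and Rel-RD). The Rel total rose by 0.85 ± 0.15 (SE) on the log2 scale over all libraries (adjusted p = 0.000146).

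After injury 99 transcripts changed their share, which is 0.522% of those tested: 47 rose (0.248%) and 52 fell (0.274%). They belong to 85 of the 6177 genes (1.38%). At the level of whole genes, 77 of 6177 (1.25%) had a transcript shift by the Simes test. The transcripts of a gene compete for the same total and are not independent of each other. A typical called transcript moved by 11.2 percentage points (the median size), against 1.78 points for all tested transcripts. Of the called transcripts, 54 moved by at least 10 points and 21 by under 5 points. Among the 99, 23 had 0 counts in some library (23.2%, against 40.8% of all tested). With 0 counts in every uninjured library there were 8 of the 99, and in every injured library 5. Over all 18967 tested transcripts these numbers were 20 and 10. The mean moved the same way in all 3 genotypes for 93 of the 99, while 30.6% of all tested transcripts did so. In 6 of the 99 no injured library overlapped any uninjured one, compared with 11 of 18967 (0.058%) among all tested transcripts. The 99 were called on these same libraries, so size, direction and lack of overlap are not independent of the call. Fitted alone, with fewer libraries, wild type, heterozygotes and homozygotes called 12, 12 and 6 of the 99. Calls depended on how the spread was estimated: with a trended dispersion in place of 1 dispersion per transcript, 81 transcripts were called, 58 higher and 23 lower, and 26 of these were among the 99. Of the 31 transcripts named by rule and described here as called, 25 lost their call under the trended dispersion. The 6 that held were Rgk1-RA, lncRNA:CR45018-RA, stck-RC, kay-RB, Arr1-RB and Zasp52-RX. Without homozygous injured library 1, 71 transcripts rose and 82 fell, and 92 of the 99 were among them.

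**Figure D1:**
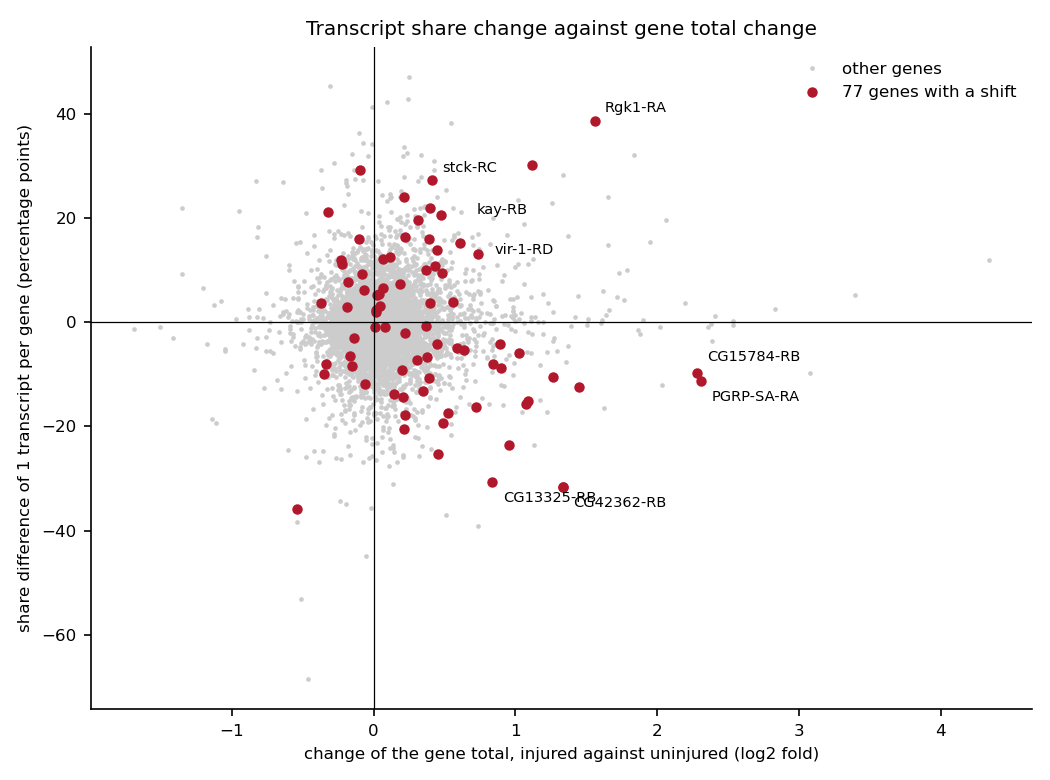
Each point is 1 transcript per gene, the called one or the one with the largest difference, with the change of the gene's total (log2 fold, horizontal) and the share difference in percentage points (vertical). The 77 genes with a shift (red) lie on both sides of 0 in share, mostly to the right of 0 in total, and 41 of them also had a higher total.

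Most shifts came with a change in gene output, but not all. The total also changed in 44 of the 77 shifted genes, higher in 41 and lower in 3, and 33 did not pass the test of the total. Over all genes tested for shares 21.1% had a changed total, and 18.4% of all 13868 genes tested for totals did (11.7% higher and 6.66% lower). The own level of the transcripts is not independent of the call, since a risen share goes with a risen level unless the total falls. It is given as description only. All 47 transcripts with a higher share had a higher mean CPM after injury. Of the 52 with a lower share, 38 had a lower mean CPM and 14 a higher one. Tab2-RA and Nmda1-RA are examples of a lower share at a level that hardly moved (Tab2-RA, 17.8 ± 3.33 CPM uninjured and 17.1 ± 4.37 CPM injured; Nmda1-RA, 122 ± 9.23 and 118 ± 12.0 CPM, SD, n = 12). In Nmda1 the transcript Nmda1-RI rose (66.5 ± 12.2 and 120.5 ± 19.1 CPM, adjusted p = 0.000739 for its share), and in Tab2 the level of Tab2-RB was 4.04 ± 1.85 and 11.2 ± 4.46 CPM.

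The shifts lay at the 5′ ends of genes more often than at the 3′ ends. Each transcript was set beside its partner, the tested transcript of the same gene that moved most the other way. Start sites lay more than 50 nt apart for 80 of the 99 called transcripts (80.8%), and for 45.5% of all tested transcripts that had a partner. Ends lay more than 50 nt apart for 21 called transcripts (21.2%), against 39.0% of all. The coding part differed in 51.5% of the called and 52.7% of all tested transcripts. No base or junction of its own was found for 28.3% of the called and 29.8% of all. The called ones without any include PGRP-LC-RE, Rgk1-RA, lncRNA:CR45018-RA, Tab2-RA, Nmda1-RA, Nmda1-RI, Tailor-RB, Vps60-RA, subdued-RB, CG34179-RA, Diap1-RB and Zasp52-RX. With 1 transcript per gene, starts differed in 69 of 85 called genes (81.2%) and in 41.2% of all genes. Among transcripts with a mean share of at least 5% in genes with at least 50 counts, the numbers were 83.1% and 43.8%. These shares describe the called transcripts and carry no test.

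**Figure D2:**
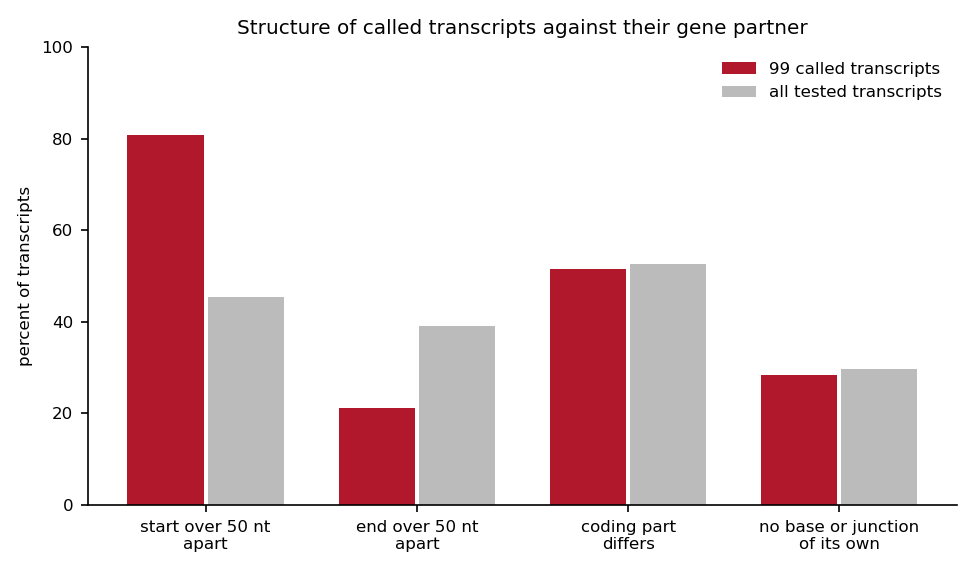
Bars give the percent of transcripts with each feature relative to the partner transcript, for the 99 called transcripts (red) and for all tested transcripts (grey). Different starts stand at 80.8% against 45.5% and different ends at 21.2% against 39.0%, while the coding part and the lack of own sequence are close in both sets.

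The Imd and Toll pathways carry danger signals from receptors through kinases to NF-kappaB factors. PGRP-LC, a membrane receptor of bacterial peptidoglycan upstream of Imd, changed its start site use. PGRP-LC-RE (chromosome 3L, 9344200 to 9346266, plus strand) begins 3762 nt downstream of PGRP-LC-RA. In wild type its share was 4.98%, 4.30%, 1.66% and 0% in the uninjured libraries and 23.8%, 16.7%, 25.3% and 16.9% in the injured ones. In heterozygotes it was 1.30%, 1.07%, 3.84% and 0% uninjured and 13.2%, 11.3%, 13.9% and 15.8% injured. In both genotypes every injured library lay above every uninjured one. In homozygotes 1 count of PGRP-LC-RE was found in the 4 uninjured libraries and 0 in the 4 injured ones. Over all 24 libraries the share rose by 9.96 ± 1.90 points (SE; adjusted p = 0.000647, permutation p = 0.000408). With the trended dispersion the adjusted p was 0.106.

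PGRP-LC-RE has no base or junction that no other PGRP-LC transcript has, so the 3 transcripts that share its start were also summed, a choice made after the values were seen. PGRP-LC-RE, PGRP-LC-RJ and PGRP-LC-RK together held 7.74% ± 2.19 of the gene's counts in uninjured and 32.6% ± 5.79 in injured wild type (SD, n = 4). In heterozygotes they held 6.07% ± 2.72 and 19.5% ± 2.84, and in homozygotes 3.31% ± 1.25 and 3.16% ± 0.768. Injured wild type and injured homozygotes did not overlap (25.5% to 39.7% against 2.34% to 4.17%; two-sided exact permutation p = 0.0286, the smallest that 4 against 4 can give). The uninjured libraries of these genotypes did not overlap either (5.89% to 10.3% against 1.84% to 4.43%, exact permutation p = 0.0286). The fit's own test of the difference between the responses, homozygous minus wild type, did not pass for PGRP-LC-RE (-4.67 ± 2.34 SE on the log2 scale, adjusted p = 1.00). The share of PGRP-LC-RE alone gave an exact permutation p of 0.143 between uninjured wild type and uninjured homozygotes. Whether the genotypes differ at PGRP-LC in a way unrelated to Rel was not tested.

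Tak1, the kinase that passes the Imd signal to both NF-kappaB and JNK, and Tab2, its binding partner, also shifted. Tak1-RB (X, 20515908 to 20518248, minus strand) starts 6680 nt inside Tak1-RA and has a coding part of 774 nt against 2034 nt. Its share was 26.4% at the lowest, 34.2% at the median and 45.9% at the highest in the 12 uninjured libraries, and 41.1%, 49.5% and 54.3% in the 12 injured ones. The ranges overlapped at their edges. The share rose by 13.9 ± 2.14 points (SE; adjusted p = 0.0148, permutation p = 2.33e-05), by 14.5, 11.7 and 15.4 points in wild type, heterozygotes and homozygotes. The call ended without homozygous uninjured library 3 (adjusted p = 0.0566) and with the trended dispersion (1.00). The level of Tak1-RB went from 11.0 ± 1.75 to 21.1 ± 3.43 CPM, while Tak1-RA stood at 20.4 ± 3.36 and 21.7 ± 2.23 CPM (SD, n = 12).

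Tab2-RA (2R, 19292529 to 19304024, plus strand) fell from a median share of 60.0% (46.8% to 79.3%) to 43.8% (27.4% to 54.7%). The difference was -19.4 ± 3.72 points (SE; adjusted p = 0.00658, permutation p = 8.16e-05), and the adjusted p was 1.00 with the trended dispersion. Tab2-RB, which starts 5714 nt further in and codes for the same length of 2493 nt, had a median of 13.6% uninjured and 26.4% injured and did not itself pass (adjusted p = 0.0849). Of the NF-kappaB list, 5 of the 25 genes tested for shares had a called transcript, against 85 of 6177 over all genes: PGRP-LC and Tak1 with a higher share, and Tab2, PGRP-SA and cact with a lower one. The median size of the share difference over the list was 2.21 points, against 1.78 points for all transcripts. Totals in this list were higher for 22 of 36 genes and lower for 0, against 11.7% and 6.66% of all genes tested for totals. The list was chosen with earlier results of these data known, and its count of called genes was not tested.

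PGRP-SA and cact lie outside the rule for named genes and were chosen after their values were seen. PGRP-SA, a secreted recognition protein of the Toll pathway, rose in total by 2.31 ± 0.17 on the log2 scale (adjusted p = 2.59e-10). PGRP-SA-RA starts 292 nt upstream of PGRP-SA-RB, and its share fell from a median of 21.9% to 7.97% (-11.2 ± 2.97 points SE, adjusted p = 0.0182), with overlapping ranges. For cact, the fly IkappaB that holds Toll's NF-kappaB factors in the cytoplasm, cact-RC fell from a median of 36.5% to 29.9% (-6.71 ± 1.34 points SE, adjusted p = 0.0335). Its partner cact-RB starts at the same place and ends 649 nt apart, so this gene shifted at its 3′ end.

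**Figure D3:**
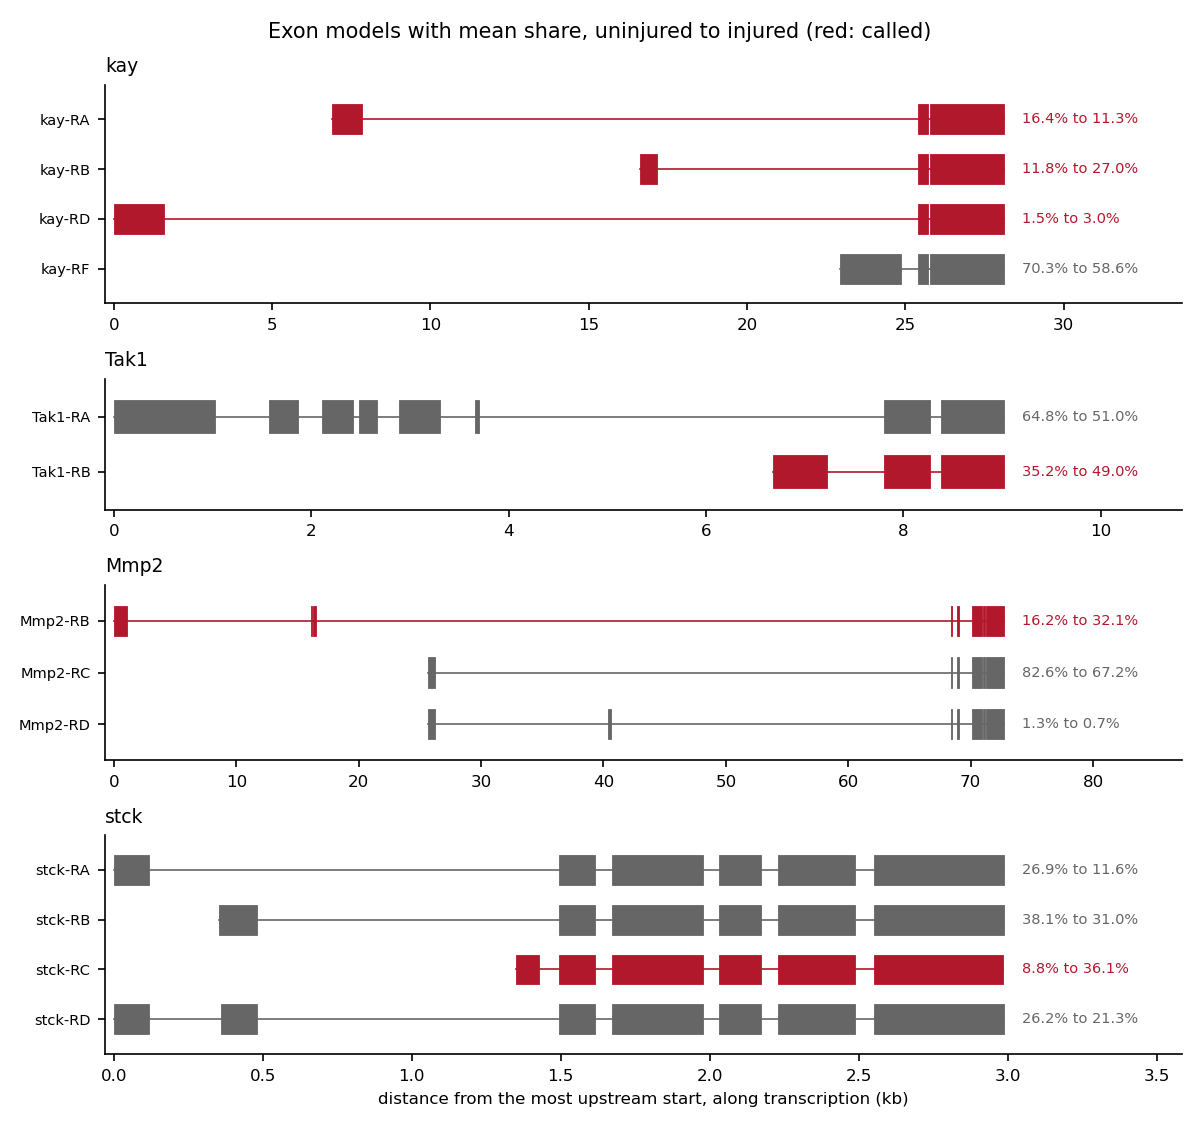
Exons (boxes) of the tested transcripts of kay, Tak1, Mmp2 and stck, drawn as distance in kb from the most upstream start along transcription, with the mean share uninjured to injured at the right. Called transcripts are red: kay-RB, kay-RA, Tak1-RB and stck-RC begin inside the gene, and kay-RD and Mmp2-RB begin furthest upstream.

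kay encodes the fly Fos protein, which forms the AP-1 factor with Jun and is a known target and effector of JNK signalling. Its 4 tested transcripts differ in their first exon, and each has a splice junction of its own. kay-RB (3R, 29782609 to 29794113, plus strand, 539 nt found in no other kay transcript) held 7.43% at the lowest, 12.9% at the median and 14.3% at the highest in uninjured libraries, and 18.3%, 28.5% and 37.1% in injured ones. No injured library overlapped an uninjured one. The share rose by 15.3 ± 1.55 points (SE; adjusted p = 4.55e-18, permutation p = 5.83e-06, the smallest the permutations can give). The level went from 14.8 ± 3.26 to 51.6 ± 12.0 CPM (SD, n = 12), and the kay total rose by 0.61 ± 0.11 on the log2 scale. kay-RD, the transcript from the most upstream start, rose from a median of 1.42% to 2.88% (adjusted p = 0.0355), and kay-RA fell from 15.6% to 11.0% (adjusted p = 0.0346). kay-RF, the main transcript, had a median of 71.3% uninjured and 58.2% injured and did not pass in the fit (adjusted p = 1.00, permutation p = 0.000222). The kay-RB call held in every fit that left out 1 library and with the trended dispersion (adjusted p = 7.46e-05).

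Mmp2, a matrix metalloproteinase that cuts extracellular matrix, moved toward its most upstream start. Mmp2-RB (2R, 9611139 to 9683858, minus strand) starts 25628 nt upstream of Mmp2-RC and has 1381 nt of its own. Its share had a median of 15.7% (10.8% to 26.3%) uninjured and 29.6% (20.4% to 45.2%) injured. The rise was 15.9 ± 2.55 points (SE; adjusted p = 0.00378, or 0.70 with the trended dispersion; permutation p = 1.75e-05), and the ranges overlapped between the highest uninjured and the lowest injured libraries. raw-RA, of a gene that restrains JNK signalling in the embryo, rose from a median of 26.9% to 43.9% (adjusted p = 0.0403) and was chosen after its value was seen. In all, 4 of the 25 JAK-STAT and JNK genes tested for shares had a called transcript (kay, Mmp2, Tak1 and raw), with 5 transcripts higher and 1 lower, against 85 of 6177 over all genes. The list median was 2.19 points, beside 1.78 points for all transcripts. Totals in this list were higher for 18 of 34 genes and lower for 2, against 11.7% and 6.66% of all genes tested for totals. Tak1 also belongs to the NF-kappaB list, and the count of called genes was not tested.

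**Figure D4:**
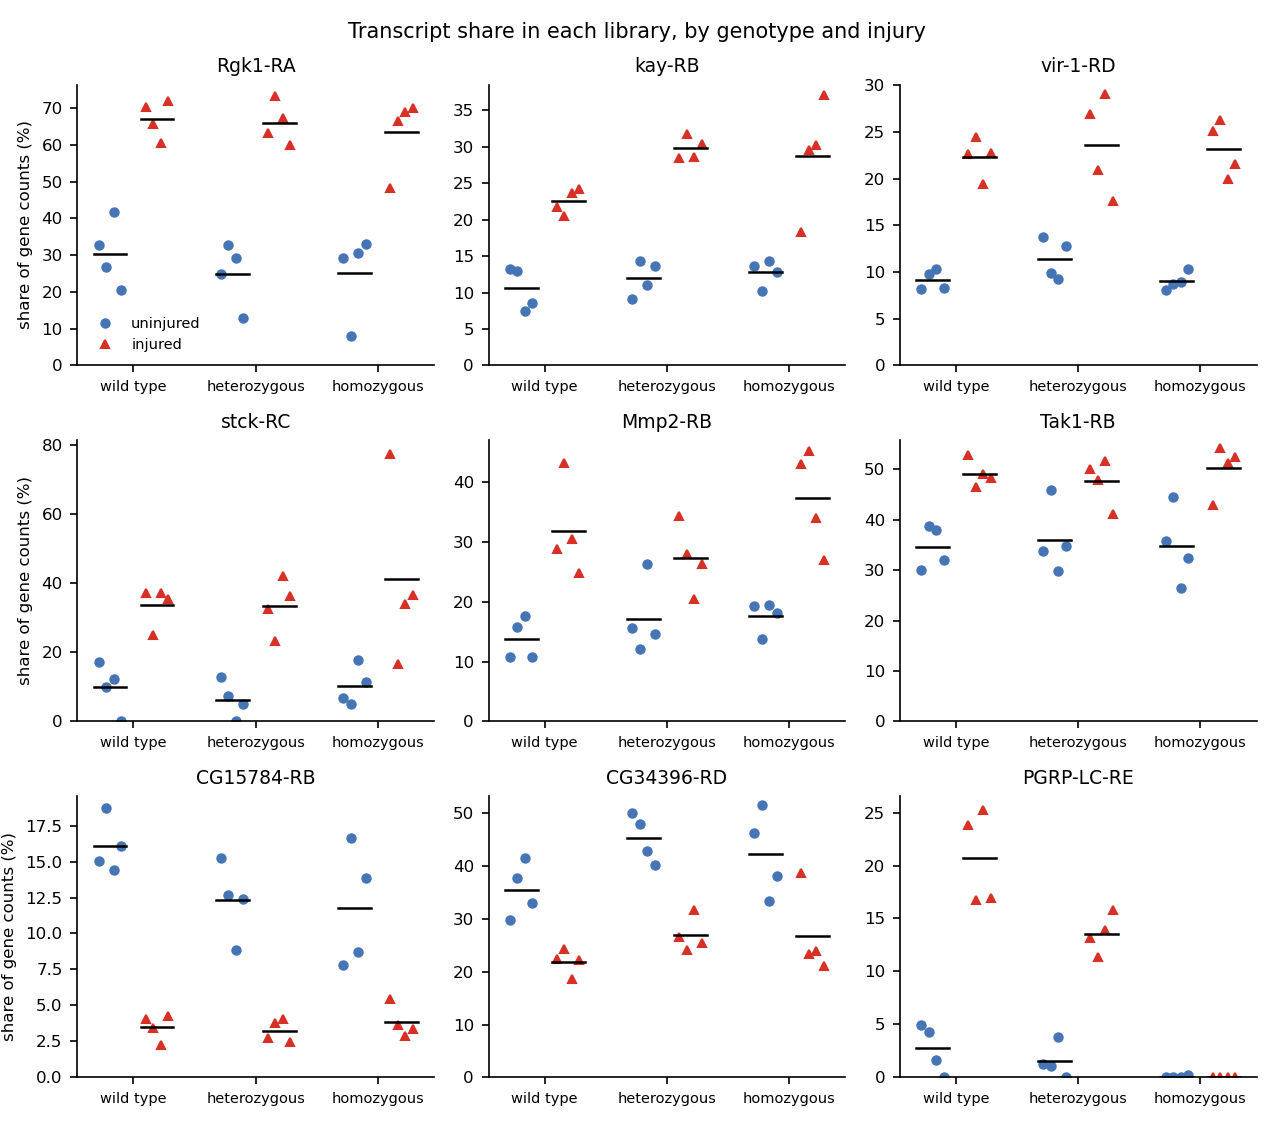
Share of the gene's counts (percent, vertical) in each library for 9 transcripts, by genotype and state (blue circles uninjured, red triangles injured, black bars the mean of 4 libraries). Rgk1-RA, kay-RB and vir-1-RD show no overlap between states over all 24 libraries, CG15784-RB and CG34396-RD fall, and PGRP-LC-RE rises in wild type and heterozygotes and stays at 0% in injured homozygotes.

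The largest share difference among the transcripts named by rule was that of Rgk1, which encodes a small GTPase of the RGK family. Rgk1-RA (2R, 19312393 to 19325496, minus strand) held 8.13% at the lowest, 29.1% at the median and 41.6% at the highest in uninjured libraries, and 48.3%, 66.8% and 73.2% in injured ones. The groups did not overlap. The rise was 38.7 ± 3.38 points (SE; adjusted p = 2.14e-06, permutation p = 5.83e-06), and 36.8, 40.9 and 38.3 points in wild type, heterozygotes and homozygotes. The level went from 4.52 ± 1.80 to 32.5 ± 7.81 CPM, while Rgk1-RC stood at 7.38 ± 2.11 and 9.60 ± 2.12 CPM and Rgk1-RB at 4.77 ± 1.29 and 6.98 ± 1.05 CPM (SD, n = 12). Rgk1-RC, which shares the start of Rgk1-RA and ends 1245 nt further on, fell in share by 24.7 points, and Rgk1-RB, which starts 31029 nt upstream, fell by 13.9 points. Rgk1-RA has no base or junction of its own, so its value rests on the missing counts over the parts particular to Rgk1-RB and Rgk1-RC. The Rgk1 total rose by 1.56 ± 0.09 on the log2 scale (adjusted p = 1.19e-11).

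The next large rises were in lncRNA:CR45018 and stck. lncRNA:CR45018-RA went from a median share of 1.67% (0% to 18.3%) to 36.7% (11.5% to 51.2%), a rise of 30.2 ± 3.50 points (SE; adjusted p = 0.000611). It had 0 counts in 6 of 12 uninjured libraries and in none of the injured ones, and it has no base or junction of its own. stck encodes PINCH, a LIM-domain adaptor of integrin adhesions. stck-RC (3R, 8358328 to 8359960, plus strand) begins 1350 nt downstream of stck-RA with 77 nt of its own, and went from a median of 8.64% (0% to 17.8%) to 35.8% (16.6% to 77.4%). The rise was 27.3 ± 4.71 points (SE; adjusted p = 0.0308, permutation p = 1.17e-05). The lowest injured library lay below the highest uninjured one. The stck-RC call was lost in 12 of the 24 fits that left out 1 library, with adjusted p up to 0.0786. Its permutation p is not adjusted for the choice of this transcript from the same libraries.

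The rule took the 25 genes with the largest share difference among those with enough counts and 1 direction in all genotypes. Counting CG42362 and CG42363 once, as they have the same reads, these are 24 leading transcripts, of which 13 rose and 11 fell. The start differed from the partner in 20 of them, against 41.2% with 1 transcript per gene over all genes. The total was also higher in 19, against 11.7% of all genes tested for totals. Other rises were those of CG10126-RA (24.04 points), CG34179-RA (21.9), Dip-B-RB (20.6, a dipeptidase), Vps60-RA (19.6, of the ESCRT-III family), subdued-RB (17.0, an anoctamin channel), ZnT35C-RA (16.3, a zinc transporter) and Tailor-RB (15.99, an enzyme that adds uridines to RNA ends). Tailor is an example without a called total (-0.10 ± 0.04 on the log2 scale, adjusted p = 0.108): Tailor-RB rose from a median of 29.0% to 48.0% as Tailor-RA fell by 13.9 points. subdued-RB moved by 1.62 points in wild type, 22.4 in heterozygotes and 27.1 in homozygotes. CG34179-RA rested on few reads, with a gene mean of 51.5 counts per library, and wild-type injured library 1 stood at 85.7%. Several of these calls were weak: of the 24 fits that left out 1 library, subdued-RB lost its call in 15 (adjusted p up to 0.194), ZnT35C-RA in 7, Dip-B-RB in 3 and Tailor-RB in 1.

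Among the falls, CG42362-RB and CG42363-RB are 1 set of reads, since their counts are identical in every library. Their share went from a median of 55.7% (15.8% to 78.9%) to 22.8% (8.16% to 27.0%), a fall of 31.6 points with an SE of 5.22 (adjusted p = 0.0011). The level of this transcript stood at 2.38 ± 0.78 CPM uninjured and 2.52 ± 0.989 CPM injured (SD, n = 12), while the gene total rose by 1.33 ± 0.15 on the log2 scale. CG13325-RB went from a median of 78.0% to 37.2% (adjusted p = 0.000647, permutation p = 0.00637), with ranges that overlapped almost wholly (47.0% to 100% and 16.1% to 92.2%). The CG13325-RB call was lost with limma on arcsine shares (0.203), with DESeq2 (0.216) and with the trended dispersion (1.00), as well as with limma voom diffSplice and edgeR with the gene total as offset. CG34396-RD fell from a median of 40.8% (29.7% to 51.5%) to 23.98% (18.6% to 38.7%), by 13.6, 18.3 and 15.5 points in the 3 genotypes (adjusted p = 1.23e-05, or 1.00 with the trended dispersion). Its partner starts 5536 nt away, and the CG34396 total rose by 1.08 ± 0.08 on the log2 scale. CREG-RB (-25.3 points), CG13077-RA (-20.5), CG8635-RA (-17.9) and Drat-RA (-16.2) fell as well. The call of CG8635-RA was lost in 18 of the 24 fits without 1 library (adjusted p up to 0.126) and that of CREG-RB in 2.

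Shmt-RA, of the serine hydroxymethyltransferase gene, differed by -23.6 ± 7.76 points (SE; adjusted p = 0.0135): -44.7 in wild type, -23.8 in heterozygotes and -2.16 in homozygotes. The difference between homozygous and wild-type responses did not pass (adjusted p = 0.959), and the call was lost in 2 of the 24 fits without 1 library. UQCR-C2-RA, of a core subunit of respiratory complex III, differed by -17.3 ± 7.08 points (adjusted p = 0.0388), and the call was lost in 13 of 24 fits without 1 library (adjusted p up to 0.306). Damm-RB, of a caspase gene, differed by -15.1 ± 6.92 points (adjusted p = 0.0193) and was lost in 8 of 24 such fits. Both had ranges that overlapped widely. The calls of Shmt-RA, UQCR-C2-RA and Damm-RB were also lost with limma (adjusted p = 0.220, 0.400 and 0.442) and with DESeq2 (0.0765, 0.326 and 0.390). Diap1, the inhibitor of apoptosis that restrains caspases, was chosen after its value was seen. Its transcript Diap1-RB went from a median of 30.4% (23.4% to 35.4%) to 37.0% (34.1% to 48.6%), a rise of 9.51 ± 1.43 points (SE; adjusted p = 0.0136), from a start 3825 nt away from that of Diap1-RA.

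Hsp22, a small heat shock protein of mitochondria, was the 1 of 35 stress and proteostasis genes with a called transcript, a share near that over all genes (85 of 6177), so nothing about the list is read from it. Hsp22-RA, whose start lies 1066 nt from that of Hsp22-RB, fell from a median share of 12.3% (5.10% to 34.7%) to 5.21% (0.943% to 15.9%). The difference was -8.74 ± 2.47 points (SE; adjusted p = 0.0046, or 1.00 with the trended dispersion; permutation p = 0.000198), and the Hsp22 total rose by 0.90 ± 0.16 on the log2 scale. The ranges overlapped.

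Outside the rule for named genes 4 further transcripts, chosen after their values were seen, had groups that did not overlap. vir-1 is induced by viral infection through JAK-STAT signalling. Its short transcript vir-1-RD (2L, 12403270 to 12404479, minus strand) starts 17383 nt downstream of vir-1-RC and rose from a median of 9.47% (8.02% to 13.7%) to 22.7% (17.6% to 29.0%). The rise was 13.2 ± 1.11 points (SE; adjusted p = 2.3e-08), and the vir-1 total rose by 0.73 ± 0.10 on the log2 scale. CG15784-RB, which starts 994 nt upstream of the only other tested transcript, fell from a median of 14.1% (7.81% to 18.7%) to 3.55% (2.24% to 5.44%; adjusted p = 1.13e-20). Its level went from 7.55 ± 1.89 to 9.96 ± 2.97 CPM while the gene went from 59.1 to 287 CPM. lncRNA:CR42862-RC rose from a median of 3.05% (2.24% to 3.60%) to 8.56% (5.71% to 9.81%; adjusted p = 2.57e-29). The lncRNA:CR42862 total was 4415 CPM uninjured and 4490 CPM injured with no call of the total (adjusted p = 0.88), and the called transcript has the same start as its partner and a splice junction of its own. MFS12-RB, of a transporter of the major facilitator family, fell from a median of 19.7% (13.1% to 30.8%) to 6.64% (2.67% to 11.5%; adjusted p = 7.24e-06).

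A called transcript was found in 2 of the 10 eye genes and 2 of the 16 muscle genes tested for shares, against 85 of 6177 over all genes. ninaC encodes the myosin III of photoreceptors. Its transcript ninaC-RC, with the start of its partner and an end 1912 nt away, went from a median of 19.7% (10.6% to 52.4%) to 36.4% (20.3% to 74.9%; adjusted p = 0.000749, permutation p = 0.00384). Arr1 encodes an arrestin that turns off rhodopsin, and Arr1-RB went from a median of 0.878% to 2.66% (adjusted p = 7.4e-05), with 18.1% in homozygous injured library 1. The 13 eye markers summed to 6521 to 12176 CPM uninjured and 4986 to 9414 CPM injured, with no marker at 0 in all libraries. Of the 13 totals, 2 were lower after injury, against 6.66% of all genes tested for totals. The part of the eye markers in these shifts was not tested.

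sls encodes a titin-like protein of the sarcomere and Zasp52 a Z-disc protein. sls-RP rose from a median of 1.35% to 1.89% (0.609 ± 0.121 points SE, adjusted p = 0.0298). sls-RA, chosen after its value was seen, did not pass (adjusted p = 0.091), although it had 0 counts in 7 of 12 uninjured libraries and held a median of 5.68% in the injured ones (1.80% to 7.70%; permutation p = 5.83e-06). Zasp52-RX had 0 counts in all 12 uninjured and in 7 of 12 injured libraries, and its highest share was 6.33% (adjusted p = 0.0374, permutation p = 0.0459). The 19 muscle markers summed to 11976 to 19095 CPM uninjured and 12638 to 18243 CPM injured. Of the 19 totals, 6 were higher after injury, against 11.7% of all genes tested for totals. The part of the muscle markers was not tested. Without 1 library the call of sls-RP was lost in 10 of 24 fits and that of Zasp52-RX in 17.

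**Figure D5:**
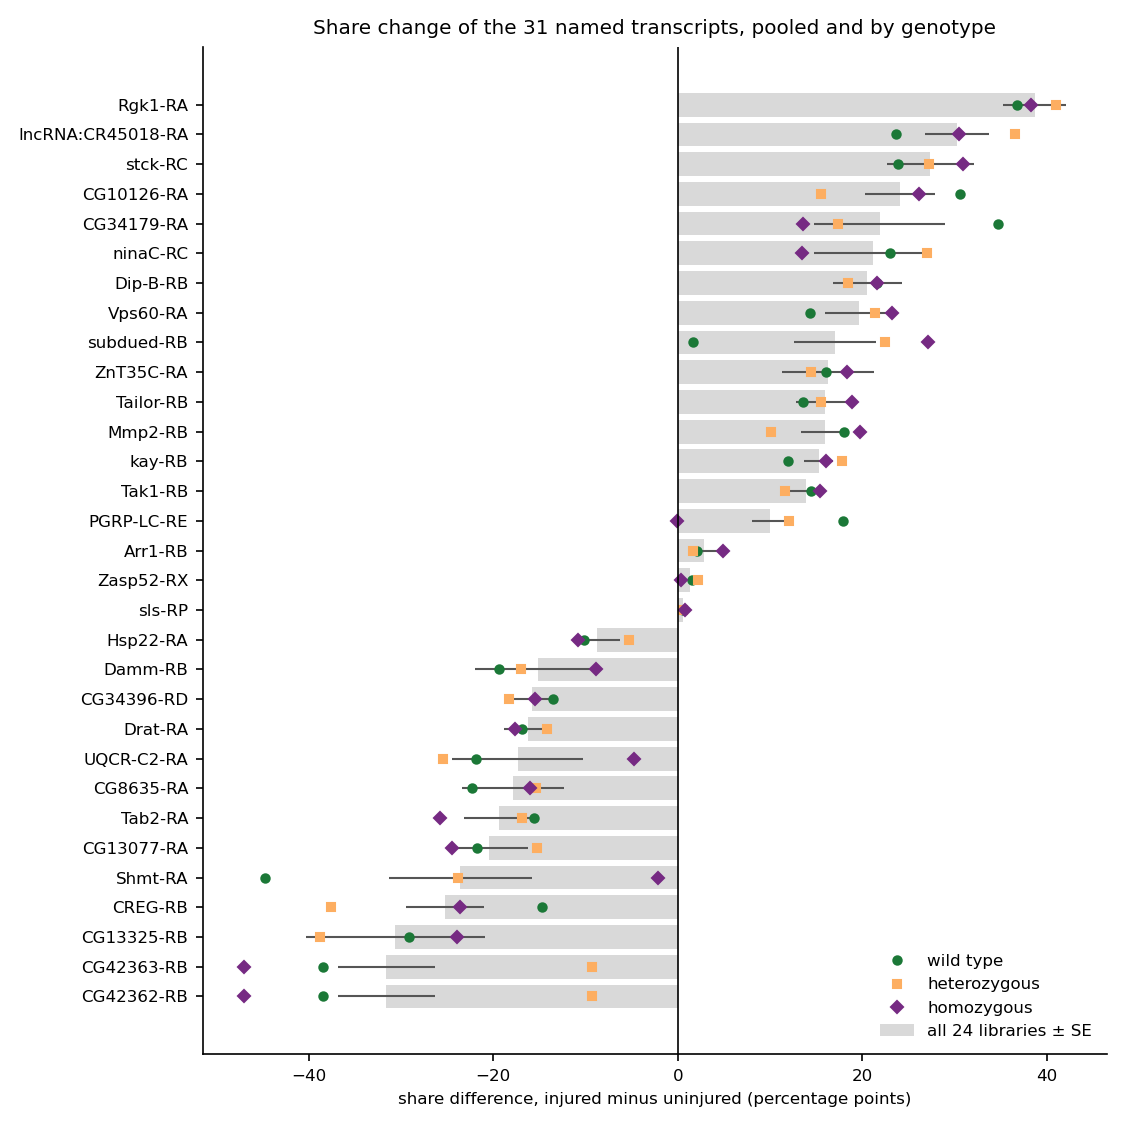
Share difference, injured minus uninjured in percentage points, for the 31 named transcripts: grey bars with SE over all 24 libraries, and points for wild type (circle), heterozygous (square) and homozygous (diamond) means. The rule for the 25 largest required points on one side of 0, and the homozygous point of PGRP-LC-RE is at -0.0616.

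Other groups of genes showed no called transcript: 0 of 37 splicing factor genes, 0 of 34 genes of insulin signalling, fasting and metabolism, 0 of 7 genes of sex determination and 0 of 9 neuron markers. With 85 of 6177 genes called over all, a count of 0 is near the background in lists of this size, and nothing about these groups is read from it. The splicing factors had 223 tested transcripts with a median share difference of 0.859 points, under the 1.78 points of all tested transcripts. They also had more transcripts per gene (223 in 37 genes, against 18967 in 6177), which makes single shares smaller. The lower median is therefore not read as steadier shares. Totals of the splicing factors were higher in 3 of 44 genes and lower in 0, against 11.7% and 6.66% of all genes tested for totals. Of the 16 clock and activity genes tested, kay was the 1 with a called transcript. Testis (3 genes), accessory gland (3), hemocyte (5), female (2) and fat body (1) lists had too few genes tested for shares to say more, and had 0 called transcripts. The hemocyte totals were lower in 4 of 7 genes (median log2 change -0.68), against 6.66% of all genes tested for totals. The summed hemocyte markers held 147 to 372 CPM uninjured and 112 to 240 CPM injured, and their part in the shifts was not tested.

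The differences between genotypes in the share response were also tested. The response of heterozygotes differed from that of wild type for 9 transcripts (0.0475%; 569 at an unadjusted p under 0.05), and that of homozygotes for 10 (0.0527%; 706 at an unadjusted p under 0.05). None of the called ones was among the 99. Both unadjusted counts, out of 18967 tests each, are fewer than that threshold gives if no response differs. The called counts were unstable: with 1 library left out they were 6 to 17 and 12 to 26, and with the replicate block 20 and 24. Called in both contrasts, and chosen after their values were seen, were 3 transcripts: CG43679-RB, Sply-RA and CkIIalpha-RF. CG43679-RB held 0% to 0.95% of its gene's counts in uninjured wild type and 7.60% to 15.7% in injured wild type. In heterozygotes it held 8.13% to 17.7% and 16.5% to 25.5%, and in homozygotes 26.6% to 38.5% and 26.6% to 61.6%, so the genotypes also differed before injury. CkIIalpha-RF, of the catalytic subunit of casein kinase 2, held 6.28% to 13.5% in uninjured wild type and had 0 counts in all 4 injured wild-type libraries.

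In the authors' deposited tables of transcript levels, which compare injury within each genotype, the adjusted p was under 0.05 for 526 transcripts in wild type, 354 in heterozygotes and 286 in homozygotes. Of these, 390, 255 and 200 were tested here for their share, and 25, 19 and 16 had a called share. Over all tested transcripts 99 of 18967 (0.522%) had one. The authors' calls compare 4 with 4 libraries within a genotype, while the share calls pool all 24 libraries. Both rest on the same counts, and the overlap was not tested. For kay-RB the authors' deposited table gives log2 fold changes, uninjured against injured, of -1.61, -1.86 and -1.90 in wild type, heterozygotes and homozygotes. For PGRP-LC-RE the authors' deposited table gives -3.26 in wild type and -2.92 in heterozygotes. The level of most transcripts called there thus changed without a called change in share.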

How the data were processed

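The authors deposited expected counts for each transcript and gene in 24 libraries. Their own comparison tables, also deposited, hold log2 fold changes and multiplicity-adjusted p-values. RSEM 1.2.22, STAR 2.4.2a, edgeR 3.10.5, CASAVA and build dm6 are named in the submitters' processing notes, without roles. The annotation and the use of strand are not given in the sources used here, so overlapping genes are uncertain. Every expected count was a whole number. Transcripts were joined to genes and exons by identifier in Ensembl release 115 (dm6 coordinates, counted from 1). 170 transcripts with 0.264% of the counts were not in it and were left out.

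Members, gene lists and tests were chosen with earlier results of these data known. Counts were fitted with edgeR 4.0.16 in R 4.3.3 (TMM factors, filterByExpr, genotype plus injury, 20 residual degrees of freedom). Shares were tested with diffSpliceDGE, which sets each transcript's change against that of its gene, and totals with the quasi-likelihood test. Calls were made at a Benjamini-Hochberg adjusted p under 0.05. A first fit of these data with the default trended dispersion had been seen before the setting was changed to 1 dispersion per transcript. Calls of other tests, given under the alternatives, were also on screen. The change was made because the trended fit called more unchanged transcripts on simulated data, although it found more of the larger changes there. The simulated counts were drawn with the per-transcript dispersions of the chosen fit. That comparison therefore favoured the chosen setting and cannot decide which suits the real data. The chosen fit still called more unchanged transcripts than the nominal share, so single calls near the threshold are weak. CPM values use the effective library size.

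A share is the percent of the gene's transcript counts, left out where a gene had under 10 counts in a library. Share differences and SE are from a linear model with genotype. Permutation p-values are two-sided and exact, with injury labels permuted within genotype (343000 assignments). They are not adjusted for the choice of the named transcripts from these same libraries. The genes named were Rel, the 25 with the largest share difference among genes with a called transcript, at least 50 counts per library and the same direction in all 3 genotypes, and up to 3 called genes per list by adjusted p. The 25th had 15.1 points (Damm-RB) and the 26th 14.4 (Cchl-RA). Others are said to be chosen after their values were seen. Alternatives included limma 3.58.1 and DESeq2 1.42.0.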

Additional observations from a re-analysis of the deposited data

Results flagged for a closer look

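Of 181 groups of 4 libraries examined for the named transcripts, 15 held a library far from the other 3. Chance gives about 1 in 20 for normally distributed values, which shares near 0% are not. Where the other 3 shares are 0%, any count is flagged, as for lncRNA:CR45018-RA, PGRP-LC-RE and, in wild type, Zasp52-RX. Homozygous injured library 1 was the one apart for Rgk1-RA (48.3%), CG34396-RD (38.7%) and Arr1-RB (18.1%). The other shares apart from their group were Rgk1-RA at 8.13% in homozygous uninjured library 2, CG13325-RB at 92.2% in heterozygous injured library 2, and lncRNA:CR45018-RA at 4.35% in homozygous uninjured library 2. stck-RC stood at 25.0% in wild-type injured library 2, CG34179-RA at 85.7% in wild-type injured library 1, and CG13077-RA at 50% in homozygous injured library 3. subdued-RB stood at 35.1% in homozygous uninjured library 1, PGRP-LC-RE at 0.246% in homozygous uninjured library 4, and Hsp22-RA at 34.7% in wild-type uninjured library 4. sls-RP stood at 0.787% in heterozygous uninjured library 2, and Zasp52-RX at 6.33% in wild-type injured library 1 and at 1.15% in homozygous injured library 3.

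A share response that differed from wild type in both mutant genotypes was found for 3 transcripts. The fitted differences on the log2 scale, heterozygous and homozygous minus wild type, were 9.99 and 10.7 for Sply-RA, -4.20 and -4.80 for CG43679-RB, and 10.4 and 13.4 for CkIIalpha-RF. Sply-RA and CkIIalpha-RF had 0 counts in all 4 injured wild-type libraries, so their sizes depend on how zeros are treated. The mean share of CG43679-RB rose in every genotype, by 11.7, 8.24 and 4.31 points in wild type, heterozygotes and homozygotes. Its log2 size rests on a very low share in uninjured wild type.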

How the results depend on the processing

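Counts of transcripts rising, transcripts falling and genes with a shift were 47, 52 and 77. With the trended dispersion they were 58, 23 and 75, with 1 mean per group 85, 73 and 122, and with DESeq2 and the gene total as offset 137, 116 and 145. Tests added after seeing the data gave 136, 128 and 164 (limma voom diffSplice, 57 of the 99 calls shared), 50, 41 and 50 (edgeR with the gene total as offset, 56 shared) and 168 genes by the gene-level F test. limma on arcsine shares called 118 transcripts, 56 of them shared. The genotypes alone gave 33, 19 and 52 (wild type), 24, 16 and 35 (heterozygotes) and 16, 6 and 22 (homozygotes). Leaving out 1 library gave 42 to 71 rising, 42 to 82 falling and 65 to 107 genes. Responses that differed from wild type numbered 6 to 17 for heterozygotes and 12 to 26 for homozygotes when 1 library was left out, and 5 for heterozygotes with the stricter filter. Changed gene totals (2545) ranged from 2111 to 3101 without 1 library and were 1969 with the replicate block.

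The labels do not say whether replicate numbers pair the samples, and the main fit did not pair them. Same-numbered libraries correlated at -0.247 to 0.0954 in their share deviations from the group mean. For gene levels (log2 CPM) these correlations ran from -0.306 to 0.291. Values of both signs cannot decide whether the numbers pair the samples. With the replicate block 74 transcripts rose, 62 fell and 112 genes shifted, and 20 and 24 responses differed in heterozygotes and homozygotes. Of the 31 named calls 18 held in all 24 fits without 1 library, 23 held with the block, 18 with limma and 6 with the trended dispersion. subdued-RB had a value of -0.0316 on the log2 scale in wild type alone; the cause was not tested. Depth limits transcripts with few reads or no sequence of their own.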
